A study of Mus musculus with 21 samples.

Results

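The 34 genes described here encode proteins of the synaptic vesicle and of the machinery that releases its content. They were listed by name and matched by symbol to the Ensembl mouse gene identifiers of the deposited tables, where all 34 were found among 55401 genes. By role the list holds 4 SNARE proteins (Snap25, Stx1a, Vamp1 and Vamp2), 6 synaptotagmins (Syt1, Syt2, Syt4, Syt5, Syt7 and Syt11), 4 vesicle membrane proteins (Syp, Sv2a, Sv2b and Sv2c), 3 synapsins (Syn1, Syn2 and Syn3) and 3 complexins (Cplx1, Cplx2 and Cplx3). It also holds 6 proteins of the active zone and of vesicle priming (Unc13a, Unc13b, Rims1, Rims2, Bsn and Pclo), 3 Rab3 GTPases (Rab3a, Rab3b and Rab3c), 3 vesicular glutamate transporters (Slc17a6, Slc17a7 and Slc17a8) and 2 proteins of vesicle retrieval (Dnm1 and Amph). No member was lost to the filter on low counts in any comparison.

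In a nerve terminal, transporters load vesicles with transmitter, and synapsins hold the reserve of vesicles near the release sites. The active zone is a protein scaffold at the plasma membrane, built by the very large proteins Bassoon and Piccolo together with RIM proteins, where Munc13 proteins prime docked vesicles by opening syntaxin for SNARE assembly. Calcium entry is sensed by synaptotagmins, the SNARE proteins of vesicle and plasma membrane then drive fusion while complexins clamp and assist it, and dynamin and amphiphysin retrieve the membrane. Loss of presynaptic proteins is a known feature of tauopathy, the group of diseases in which the microtubule protein tau accumulates in neurons.

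Forebrain RNA was sequenced from 21 mice. All of them were homozygous for human APOE, which replaces the mouse gene at its own locus: APOE2 in E2H, APOE3 in E3H and APOE4 in E4H mice. These parental groups had 3 mice each and were killed at an age of 9 to 10 months. The PS19 groups, named PS/E2H, PS/E3H or PS/E4H after their APOE line, had 4 mice each, were also heterozygous for the PS19 transgene, which expresses human tau with the P301S mutation from a prion promoter, and were killed at hindlimb paralysis. The study calls E2H and E3H mice matched in age to their paralyzed counterparts. Its median ages at paralysis, from survival cohorts, were above 10 months in every PS19 group and highest in PS/E3H. The age of each sequenced PS19 mouse is not given in the sources used here. The PS19 line was kept on a mixed B6/C3H background and the APOE lines on C57BL6, so between paralyzed and parental mice the transgene, paralysis, any difference in age at death and remaining C3H segments cannot be told apart. Each mouse is a separate animal by its label.

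Total counts ran from 59265459 to 75932183 per mouse, and the scarcest member, Syn3, still had at least 149 counts in every mouse. Cortical, striatal and thalamic neuron markers were present in all 21 mice, and genes listed here as markers of tissue behind the forebrain were detected too. Whether each of these genes is limited to that tissue was not tested. Of 6 cerebellar markers, Gabra6 had 3 counts or fewer in 14 mice and Pcp2 in 8, and the other 4 (Cbln3, Zic1, En2 and Barhl2) had more in every mouse. Of 12 midbrain and hindbrain markers, Hoxb3 had 3 counts or fewer in 14 mice, Hoxb5 in 11, Slc6a4 in 3 and Gata3 and En1 in 1 each, and the other 7, among them Tph2 (0.536 to 29.2 CPM) and Slc6a3 (0.504 to 37.5 CPM), had more in every mouse. Mouse E2H 2 stood apart in transcript length: the median deviation of its genes with transcripts over 10 kb from their mean over 21 mice was -0.349 on the log2 scale, against -0.264 to 0.241 in the other mice. The study's methods list all mice as male except 1 E4H, 1 PS/E2H and 2 PS/E4H mice. Xist, the RNA that coats the inactive X chromosome of females, was at 2.54 to 2.89 CPM (counts scaled to 1000000 per library after TMM normalisation) in 1 E4H, 1 PS/E2H and 2 PS/E4H mice and at 205.5 to 482.5 in the other 17, the reverse of that description, so the results below were also computed without these 4 mice.

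Levels between genes were compared per length, as FPKM, the fragments assigned to a gene divided by its transcript length in kilobases and by the number of fragments mapped. Cplx1 had the highest mean level, 328 FPKM over the 21 mice, followed by Snap25 (298 FPKM), Vamp2 (264 FPKM), Syp (246 FPKM) and Rab3a (206 FPKM). The range of each over mice overlapped with that of the next in this order, while Cplx1 (277.4 to 367.6 FPKM) and Snap25 (256.9 to 339.5 FPKM) lay above Rab3a (179.4 to 247.1 FPKM) in every mouse. The best expressed member of the other groups was Slc17a7 among the transporters (157 FPKM), Dnm1 among the retrieval proteins (156 FPKM), Syt1 among the synaptotagmins (152 FPKM), Syn1 among the synapsins (131 FPKM) and Rims1 in the active zone (16.4 FPKM). The lowest 3 members were Unc13b (1.64 FPKM), Slc17a8 (1.11 FPKM) and Syn3 (0.372 FPKM). The synapsins thus lie far apart in level, and all 6 active zone and priming genes sit below Syp and Sv2a of the vesicle membrane. Together the 34 genes took 1.57% to 1.70% of all counts in the parental mice. The share was 1.52% to 1.62% in PS/E2H, 1.45% to 1.68% in PS/E3H and 1.37% to 1.48% in PS/E4H mice, so that all PS/E4H mice lay below all E4H mice (1.57% to 1.68%).

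**Figure D1:**
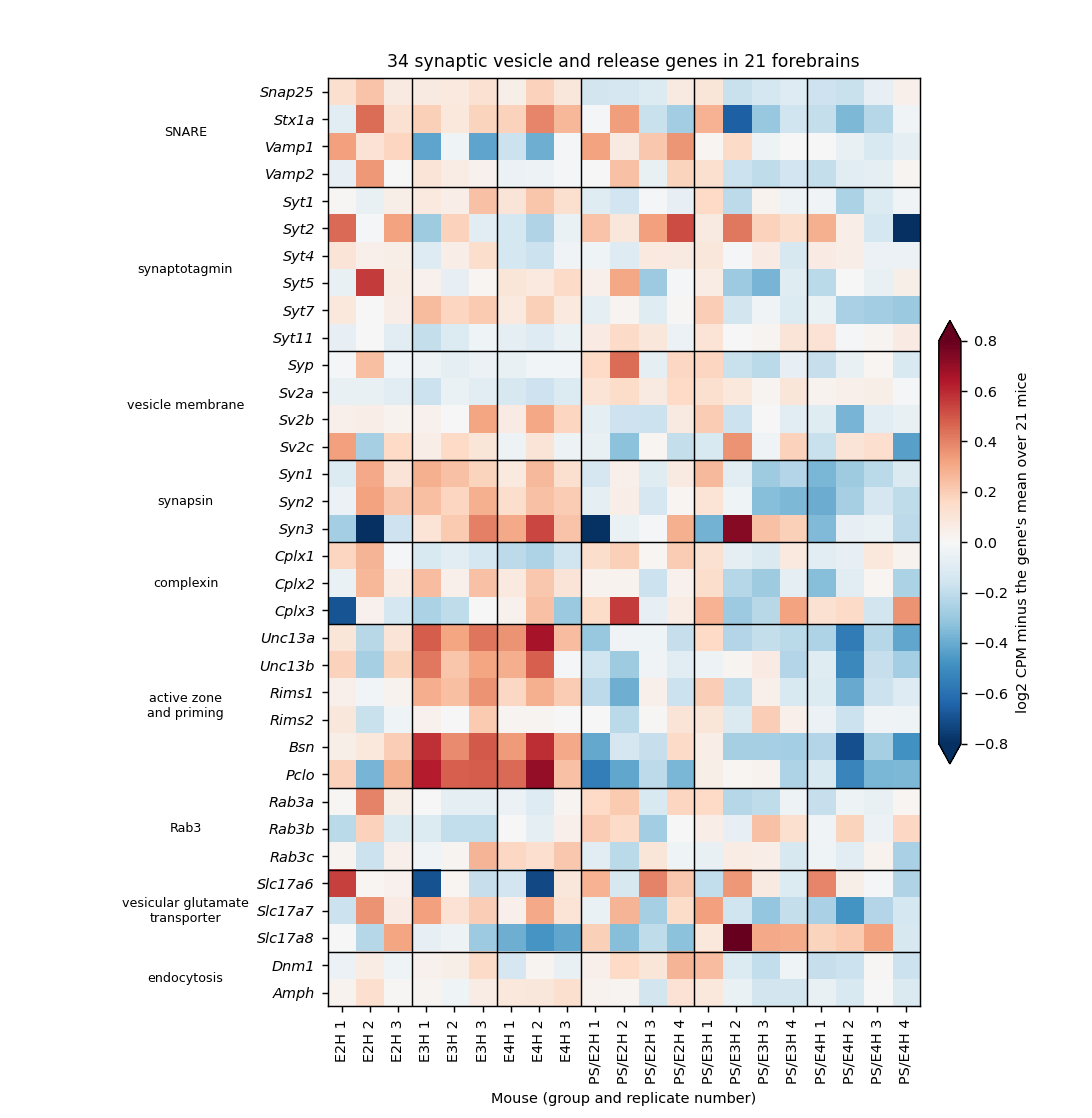
Heat map of the 34 genes (rows, grouped by role) in 21 mice (columns, 3 or 4 per group); colour is log2 CPM minus the mean of that gene over the 21 mice, from blue (lower) to red (higher), clipped at 0.8. Bsn, Pclo and Unc13a are red in E3H and E4H mice and blue in most PS19 mice, Sv2a is slightly red in all 12 PS19 mice, and 1 PS/E4H mouse is far below the others in Syt2.

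To ask how the release genes differ in paralyzed tau mice, each PS19 group was compared with the parental line of the same APOE genotype. In PS/E4H mice 15 of the 34 members fell and 1 rose at an adjusted p under 0.05 (edgeR quasi-likelihood test with Benjamini-Hochberg adjustment over all 20844 genes tested). Among all genes 6.98% fell and 8.62% rose by that rule, and 21 of the 34 had an unadjusted p under 0.05, against 30.1% of all genes. In PS/E3H mice 4 members fell and none rose, against 2.02% and 3.35% of 21251 genes, and 15 of 34 had an unadjusted p under 0.05, against 21.4% of all genes. In PS/E2H mice no member passed by edgeR, where 0.0825% of 20617 genes fell and 0.669% rose, nor by DESeq2, where 3.71% of all genes passed, and 3 of 34 had an unadjusted p under 0.05 (Pclo, Snap25 and Sv2a), against 10.7% of all genes. The study's additional limit of a 2-fold change was met by no member in any comparison, against 0.485%, 1.32% and 2.98% of all genes on the APOE2, APOE3 and APOE4 backgrounds.

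Most members leaned to lower values in each PS19 group. The fitted difference was below 0 for 24 of 34 members in PS/E2H, 25 in PS/E3H and 25 in PS/E4H mice, against 52.7%, 50.6% and 50.3% of all genes tested. The median log2 fold change of the 34 members was -0.065, -0.112 and -0.174, against -0.015, -0.004 and -0.002 over all genes. Counted on rounded values, the fitted difference was below 0 in all 3 comparisons for 19 members and above 0 in all 3 for 5 (Cplx3, Rab3b, Sv2a, Syt11 and Vamp1). Sv2c, not counted among the 19, was below 0 in all 3 before rounding. The share of all genes with the same sign in all 3 was not counted. In PS/E4H mice 19 members had every PS19 mouse below every parental mouse, where 13.8% of all genes did, and 4 had every PS19 mouse above, where 15% did. The counts were 6 and 4 in PS/E3H mice, against 8.75% and 10.5% of all genes. In PS/E2H mice no member had all 4 mice below and 1, Sv2a, had them above, against 5.05% and 6.67%.

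**Figure D2:**
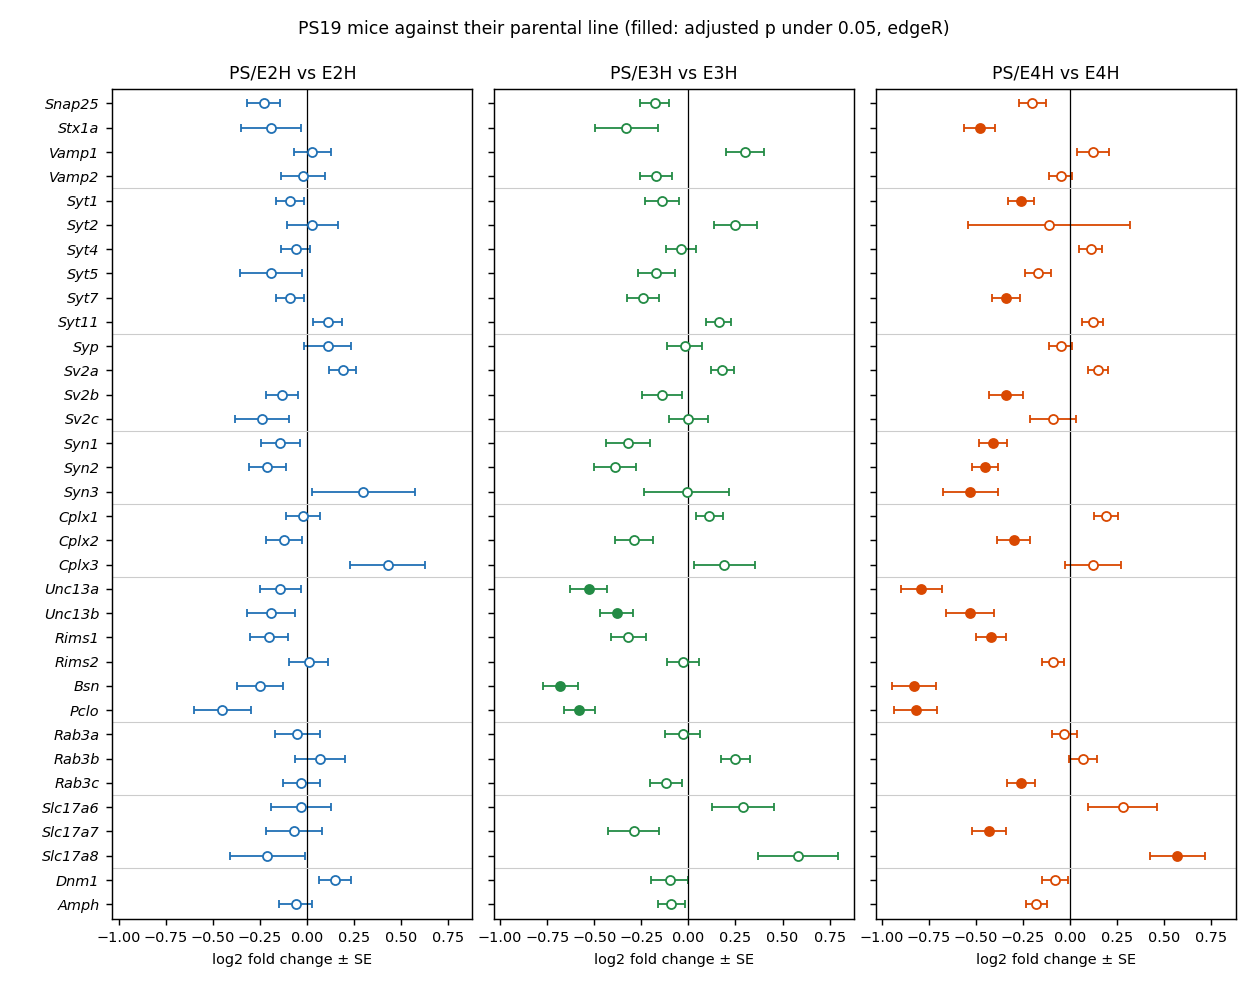
Log2 fold change with its standard error (x axis) of the 34 members (y axis, grouped by role) in the 3 PS19 groups against their parental lines, with filled symbols for an adjusted p under 0.05 in edgeR. No symbol is filled on the APOE2 background, 4 are on the APOE3 background and 16 on the APOE4 background, with Bsn, Pclo and Unc13a farthest to the left in both.

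Bsn, Pclo and Unc13a, all of the active zone and priming role, had the 3 lowest log2 fold changes of the 34 members on both the APOE3 and APOE4 backgrounds. Bsn encodes Bassoon, 1 of the large scaffold proteins of the active zone. It stood at 324, 282 and 304 CPM in E3H mice and at 225, 180, 180 and 180 CPM in PS/E3H mice. In E4H mice it was at 274, 327 and 267 CPM and in PS/E4H mice at 184, 133, 180 and 155 CPM. No PS19 mouse reached a parental mouse on either background, and Bsn fell by 0.68 ± 0.092 (log2 fold change ± SE, adjusted p = 0.00467, edgeR) in PS/E3H and by 0.83 ± 0.12 (adjusted p = 0.00184) in PS/E4H mice. On the APOE2 background the values were 224, 229 and 248 CPM in E2H and 163, 197, 191 and 241 CPM in PS/E2H mice, which overlap, with a log2 fold change of -0.25 ± 0.12 (adjusted p = 0.523).

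Pclo encodes Piccolo, the paralog of Bassoon in the same scaffold. Its values were 211, 190 and 190 CPM in E3H mice against 141, 137, 139 and 115 CPM in PS/E3H mice. They were 186, 221 and 160 CPM in E4H mice against 125, 94.5, 106 and 106 CPM in PS/E4H mice. Again the groups were apart, and Pclo fell by 0.58 ± 0.083 (adjusted p = 0.00657, edgeR) and by 0.82 ± 0.12 (adjusted p = 0.00200). In E2H mice Pclo was at 154, 105 and 166 CPM and in PS/E2H mice at 92.6, 102, 118 and 106 CPM. Mouse E2H 2 lay among the PS19 mice there, and the log2 fold change was -0.45 ± 0.15 (adjusted p = 0.286). Without E2H 2, Pclo alone of the 34 passed in PS/E2H mice, against 0.573% of all genes.

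Unc13a encodes Munc13-1, the main priming factor of excitatory terminals. It was at 261, 232 and 251 CPM in E3H mice and 208, 158, 163 and 160 CPM in PS/E3H mice. In E4H mice it was at 238.4, 294 and 221 CPM and in PS/E4H mice at 157, 126, 159 and 140 CPM. It fell by 0.53 ± 0.099 (adjusted p = 0.0172, edgeR) in PS/E3H and by 0.79 ± 0.11 (adjusted p = 0.00174) in PS/E4H mice, with no overlap in either. The E2H mice were at 199, 159 and 200 CPM and the PS/E2H mice at 151, 183, 182 and 164 CPM, which overlap (log2 fold change -0.14 ± 0.11, adjusted p = 0.744). In PS/E3H mice the call of Unc13a was lost without any 1 of the E3H mice or without PS/E3H 4, with log2 fold changes of -0.63 to -0.49 over the 7 fits that left out 1 mouse, and that of Pclo was lost without E3H 1 (-0.60 to -0.51 over 7 fits). Exons of Unc13a share 495 bases with Colgalt1 on the other strand, a gene with 23.1% of its counts, and whether the counting used strand is not given in the sources used here.

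Rims1 encodes RIM1, which tethers calcium channels and Munc13 at the release site. It was at 154, 168 and 158 CPM in E4H mice and at 127, 104, 122 and 128 CPM in PS/E4H mice. It fell by 0.42 ± 0.079 (adjusted p = 0.00725, edgeR), with every PS/E4H mouse below every E4H mouse. The E3H mice were at 168, 162 and 177 CPM and the PS/E3H mice at 158, 120, 142 and 126 CPM, also apart, but the fold change of -0.32 ± 0.093 did not pass (adjusted p = 0.0747). In E2H mice it was at 142, 135 and 140 CPM and in PS/E2H mice at 119, 105, 142 and 122 CPM (log2 fold change -0.20 ± 0.10, adjusted p = 0.55).

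The 2 remaining genes of this role differed from each other. Unc13b, the second Munc13 gene, fell by 0.38 ± 0.088 (adjusted p = 0.0357, edgeR) in PS/E3H and by 0.53 ± 0.13 (adjusted p = 0.0195) in PS/E4H mice. Its call was lost without E3H 1, 2 or 3, PS/E3H 2 or PS/E3H 4 on the APOE3 background (-0.42 to -0.32 over 7 fits) and without E4H 1 or 2 on the APOE4 background (-0.65 to -0.41 over 7 fits). Rims2, the paralog of Rims1, had log2 fold changes of 0.01, -0.03 and -0.09 in the 3 comparisons and passed in none.

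Promoter sequences are shown for the 4 active zone and priming genes that fell on both the APOE3 and APOE4 backgrounds and for Sv2a, which stood higher in every PS19 mouse. In the GRCm38 annotation (GENCODE M21) Bsn lies at chr9:108096022-108190384, Pclo at chr5:14514918-14863459, Unc13a at chr8:71624417-71671757, Unc13b at chr4:43058953-43264871 and Sv2a at chr3:96181151-96195521. The windows come from RefSeq (GRCm38.p6), are read 5′ to 3′ on the strand of the gene, lie in the 250 bases before the annotated start, and leave out bases that are exon of any gene in GENCODE M21. Capitals mark a GC box (GGGCGG on either strand, the site of Sp factors) or the palindromic site of NRF1, which is the 1 run of capitals in the Bsn window.
Bsn, chr9:108190385-108190530, minus strand: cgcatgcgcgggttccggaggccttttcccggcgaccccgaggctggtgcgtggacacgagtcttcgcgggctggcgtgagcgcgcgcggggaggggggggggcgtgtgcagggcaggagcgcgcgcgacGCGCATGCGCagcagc
Pclo, chr5:14514668-14514917, plus strand: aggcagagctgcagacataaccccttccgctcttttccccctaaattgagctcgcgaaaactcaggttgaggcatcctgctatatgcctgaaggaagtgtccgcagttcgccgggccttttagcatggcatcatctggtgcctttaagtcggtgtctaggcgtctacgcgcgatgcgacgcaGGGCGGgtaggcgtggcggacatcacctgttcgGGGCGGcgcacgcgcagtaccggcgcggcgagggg
Unc13a, chr8:71671758-71672007, minus strand: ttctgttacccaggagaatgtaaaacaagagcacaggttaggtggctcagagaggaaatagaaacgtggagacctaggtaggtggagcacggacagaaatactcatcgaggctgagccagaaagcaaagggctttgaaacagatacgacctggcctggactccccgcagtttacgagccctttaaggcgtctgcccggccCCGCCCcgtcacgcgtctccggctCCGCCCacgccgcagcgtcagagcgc
Unc13b, chr4:43058703-43058952, plus strand: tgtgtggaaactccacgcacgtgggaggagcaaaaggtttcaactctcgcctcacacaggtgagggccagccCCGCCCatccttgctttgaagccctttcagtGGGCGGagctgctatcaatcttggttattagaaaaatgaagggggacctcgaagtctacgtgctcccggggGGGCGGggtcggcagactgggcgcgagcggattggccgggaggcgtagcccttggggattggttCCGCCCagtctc
Sv2a, chr3:96180977-96181150, plus strand: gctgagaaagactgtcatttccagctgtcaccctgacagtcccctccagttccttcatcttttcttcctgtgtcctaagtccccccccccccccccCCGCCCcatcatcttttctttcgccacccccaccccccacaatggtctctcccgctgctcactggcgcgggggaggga

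The shown windows of Pclo and Unc13a hold 2 GC boxes each, that of Unc13b holds 4 and that of Sv2a 1, while the window of Bsn holds none and has 1 NRF1 site. RefSeq promoters were found for 27 of the 34 members (not for Snap25, Vamp2, Syt4, Syt5, Syt7, Syn3 and Rims2). In the 250 bases before the start, 19 of these 27 (70.4%) had a GC box in at least 1 promoter, against 35.4% of 27025 genes of all kinds in the table. GC boxes were found in members that fell, such as Pclo and Unc13a, and in members that did not, such as Syp and Rab3a. An NRF1 site was found in 1 member, Bsn (3.7%), against 0.877% of all genes. The cyclic AMP response element TGACGTCA was in 1 member, Syn1 (3.7%, against 1.77%), the E-box CACGTG in 3 (11.1%, against 6.86%) and the TATA box TATAAA in 2 (7.41%, against 14.3%), each searched on both strands. A match of letters is a description and does not show that a factor binds.

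Of the SNARE genes, 1 passed. Stx1a, the plasma membrane syntaxin that Munc13 opens, fell by 0.48 ± 0.084 (adjusted p = 0.00509, edgeR) in PS/E4H mice, where it ranged from 139 to 176 CPM against 203 to 235 CPM in E4H mice. In PS/E3H mice its log2 fold change was -0.33 ± 0.17 (adjusted p = 0.295), with mouse PS/E3H 1 at 217 CPM and the others at 114 to 160 CPM. Snap25, its partner on the plasma membrane, was at 2258, 2481 and 2330 CPM in E4H mice and at 1952, 1929, 2086 and 2248 CPM in PS/E4H mice. It was at 2293, 2303 and 2382 CPM in E3H and 2334, 1929, 1984 and 2039 CPM in PS/E3H mice, and at 2388, 2560 and 2299 CPM in E2H and 1973, 1992, 2028 and 2300 CPM in PS/E2H mice. The log2 fold changes were alike, -0.20 ± 0.070 (adjusted p = 0.0769), -0.18 ± 0.076 (adjusted p = 0.205) and -0.23 ± 0.086 (adjusted p = 0.364), and none passed on its own. Vamp2, the vesicle SNARE of most forebrain terminals, had log2 fold changes of -0.02, -0.17 and -0.05 on the APOE2, APOE3 and APOE4 backgrounds. Vamp1, its paralog, had 0.03, 0.30 and 0.12, and neither passed.

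Among the synaptotagmins, Syt1, the fast calcium sensor of release, fell in PS/E4H mice. The E4H mice were at 1477, 1599 and 1497 CPM and the PS/E4H mice at 1346, 1154, 1271 and 1348 CPM, with no overlap (log2 fold change -0.26 ± 0.070, adjusted p = 0.0330, edgeR). The E3H mice were at 1449, 1422 and 1614 CPM and the PS/E3H mice at 1530, 1189, 1400 and 1337 CPM (-0.14 ± 0.089, adjusted p = 0.402). The E2H mice were at 1382, 1315 and 1416 CPM and the PS/E2H mice at 1283, 1235, 1359 and 1310 CPM (-0.09 ± 0.076, adjusted p = 0.782). Syt7, the slow sensor of asynchronous release and facilitation, fell by 0.34 ± 0.072 (adjusted p = 0.0120) in PS/E4H mice and had log2 fold changes of -0.24 and -0.09 in PS/E3H and PS/E2H mice, which did not pass. The call of Syt1 was lost without E4H 1, 2 or 3 or PS/E4H 2 (-0.28 to -0.21 over 7 fits) and that of Syt7 without E4H 2 (-0.40 to -0.30 over 7 fits).

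Syt11, a synaptotagmin that does not bind calcium, went the other way. It was at 760, 797 and 750 CPM in E2H and 831, 884, 846 and 769 CPM in PS/E2H mice, at 696, 735 and 776 CPM in E3H and 856, 796, 806 and 852 CPM in PS/E3H mice, and at 756, 738 and 764 CPM in E4H and 859, 790, 807 and 832 CPM in PS/E4H mice. All PS/E3H and PS/E4H mice lay above their parental mice, and 3 of 4 PS/E2H mice did. The log2 fold changes were 0.11 ± 0.078, 0.16 ± 0.064 and 0.12 ± 0.056 (adjusted p = 0.709, 0.184 and 0.178, edgeR). The other 3 synaptotagmins passed in none of the 3 comparisons, with log2 fold changes from -0.19 (Syt5 in PS/E2H mice) to 0.25 (Syt2 in PS/E3H mice). Syt2 was at 17.3 CPM in mouse PS/E4H 4 and at 78.0 to 105 CPM in the other 3 PS/E4H mice.

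Of the vesicle membrane proteins, Sv2a, the ubiquitous SV2 isoform that is the target of levetiracetam, was higher in every one of the 12 PS19 mice than in every one of the 9 parental mice, as were 1.38% of all genes. The values were 576, 577 and 565 CPM in E2H and 650, 665, 631 and 672 CPM in PS/E2H mice. On the APOE3 background they were 532, 580 and 567 CPM against 658, 636, 611 and 644 CPM, and on the APOE4 background 549, 536 and 557 CPM against 612, 618, 620 and 596 CPM. The differences were small and even, with log2 fold changes of 0.19 ± 0.072, 0.18 ± 0.061 and 0.15 ± 0.052, and none passed on its own (adjusted p = 0.368, 0.128 and 0.0755, edgeR). Its paralog Sv2b, which is found mainly in excitatory terminals, had the opposite sign and fell by 0.34 ± 0.089 (adjusted p = 0.0297) in PS/E4H mice. That call was lost without E4H 2, E4H 3 or PS/E4H 2 (-0.39 to -0.26 over 7 fits). Their paralog Sv2c had log2 fold changes of -0.24, -0.00 and -0.09 and passed in none.

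Syp encodes synaptophysin, the most widely used marker of synaptic vesicles. It was at 1327, 1361 and 1361 CPM in E4H and 1218, 1330, 1397 and 1275 CPM in PS/E4H mice, at 1348, 1314 and 1342 CPM in E3H and 1560, 1225, 1193 and 1324 CPM in PS/E3H mice, and at 1369, 1635 and 1366 CPM in E2H and 1549, 1885, 1312 and 1554 CPM in PS/E2H mice. The groups overlapped on each background. Its log2 fold change was -0.05 in PS/E4H mice, with a 95% interval of -0.18 to 0.07 that does not reach the fall of Bsn, Pclo or Unc13a in the same mice.

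The synapsins Syn1 and Syn2 coat the vesicle and tie it to the reserve pool. In E4H mice Syn1 was at 490, 554 and 507 CPM and in PS/E4H mice at 360, 382, 399 and 428 CPM, a fall of 0.41 ± 0.073 (adjusted p = 0.00634, edgeR). Syn2 was at 521, 556 and 544 CPM in E4H and 359, 393, 430 and 410 CPM in PS/E4H mice, a log2 fold change of -0.45 ± 0.070 (adjusted p = 0.00307). Both were apart in every mouse. On the APOE3 background Syn1 was at 566, 546 and 524 CPM against 554, 435, 380 and 395 CPM, and Syn2 at 557, 531 and 576 CPM against 509, 460, 374 and 368 CPM. Mouse PS/E3H 1 had the highest level of both in its group, and the log2 fold changes of -0.32 ± 0.12 and -0.39 ± 0.11 did not pass (adjusted p = 0.148 and 0.0716). On the APOE2 background Syn1 was at 430, 572 and 499 CPM against 422, 478, 434 and 487 CPM and Syn2 at 458, 590 and 549 CPM against 450, 490, 430 and 478 CPM (log2 fold changes -0.14 ± 0.10 and -0.21 ± 0.099, adjusted p = 0.724 and 0.498). Syn3, the scarcest synapsin, passed in PS/E4H mice (log2 fold change -0.53 ± 0.14, adjusted p = 0.0339) but in 1 of 7 fits that left out a mouse, and its exons share 1733 bases with Timp3 on the other strand, a gene with 198474 counts over the 21 mice against its 6975, so its value is uncertain.

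Complexins bind the assembled SNARE complex. Cplx1 was at 673, 654 and 696 CPM in E4H and 734, 741, 823 and 790 CPM in PS/E4H mice, which do not overlap (log2 fold change 0.19 ± 0.062, adjusted p = 0.0668, edgeR). It was at 713, 733 and 705 CPM in E3H and 846, 740, 718 and 818 CPM in PS/E3H mice and at 874, 939 and 773 CPM in E2H and 856, 886, 787 and 894 CPM in PS/E2H mice, where it differed by 0.11 ± 0.072 and -0.02 ± 0.090 on the log2 scale (adjusted p = 0.423 and 0.978). Cplx2, its forebrain paralog, fell by 0.30 ± 0.087 (adjusted p = 0.0436) in PS/E4H mice, a call kept in 1 of 7 fits that left out a mouse (-0.36 to -0.24). Cplx3, the complexin of retina and some cortical neurons, passed in none.

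Slc17a7, Slc17a6 and Slc17a8 encode the vesicular glutamate transporters VGLUT1 of cortical and hippocampal, VGLUT2 of thalamic and brainstem, and VGLUT3 of scattered neurons. Slc17a7 was at 934, 1118 and 977 CPM in E4H and 757, 651, 773 and 824 CPM in PS/E4H mice and fell by 0.43 ± 0.090 (adjusted p = 0.0115, edgeR), a call that was lost without E4H 2 (-0.48 to -0.35 over 7 fits). It was at 1137, 984 and 1041 CPM in E3H and 1138, 812, 730 and 796 CPM in PS/E3H mice (-0.29 ± 0.14, adjusted p = 0.251). In E2H mice it was at 804, 1162 and 950 CPM and in PS/E2H mice at 873, 1095, 755 and 1003 CPM (-0.07 ± 0.15, adjusted p = 0.933). Slc17a6 had log2 fold changes of -0.03, 0.29 and 0.28 on the APOE2, APOE3 and APOE4 backgrounds and passed in none.

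Slc17a8, at 3.96 to 10.9 CPM over all mice, was the only member that rose in PS/E4H mice. It was at 4.18, 3.96 and 4.12 CPM in E4H and 6.21, 6.34, 6.86 and 5.02 CPM in PS/E4H mice (log2 fold change 0.57 ± 0.15, adjusted p = 0.0266, edgeR). The call was kept in 2 of 7 fits that left out a mouse and lost without E4H 1, 2 or 3 or PS/E4H 2 or 3 (0.52 to 0.66 over the 7). It was at 5.25, 5.33 and 4.49 CPM in E3H and 5.83, 10.9, 6.77 and 6.73 CPM in PS/E3H mice (0.58 ± 0.21, adjusted p = 0.144) and at 5.49, 4.68 and 6.84 CPM in E2H and 6.25, 4.34, 4.78 and 4.37 CPM in PS/E2H mice (-0.21 ± 0.20, adjusted p = 0.802).

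Rab3 GTPases mark vesicles for docking, and dynamin pinches retrieved membrane from the surface. Rab3a was at 480, 463 and 504 CPM in E4H and 436, 483, 477 and 501 CPM in PS/E4H mice, at 497, 469 and 469 CPM in E3H and 554, 423, 432 and 482 CPM in PS/E3H mice, and at 498, 653 and 512 CPM in E2H and 554, 574, 455 and 558 CPM in PS/E2H mice. Its log2 fold changes were -0.03, -0.03 and -0.05 and the groups overlapped on each background. Dnm1, the neuronal dynamin, was at 806, 896 and 848 CPM in E4H and 776, 785, 888 and 784 CPM in PS/E4H mice, at 905, 912 and 982 CPM in E3H and 1049, 818, 770 and 864 CPM in PS/E3H mice, and at 854, 919 and 864 CPM in E2H and 908, 985, 943 and 1068 CPM in PS/E2H mice, and differences of -0.08, -0.10 and 0.15 on the log2 scale did not pass (adjusted p = 0.499, 0.617 and 0.604, edgeR). Rab3c fell by 0.26 ± 0.073 (adjusted p = 0.0355) in PS/E4H mice, a call kept in 2 of 7 fits that left out a mouse (-0.30 to -0.20). Rab3b and Amph, the amphiphysin that recruits dynamin, passed in none.

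**Figure D3:**
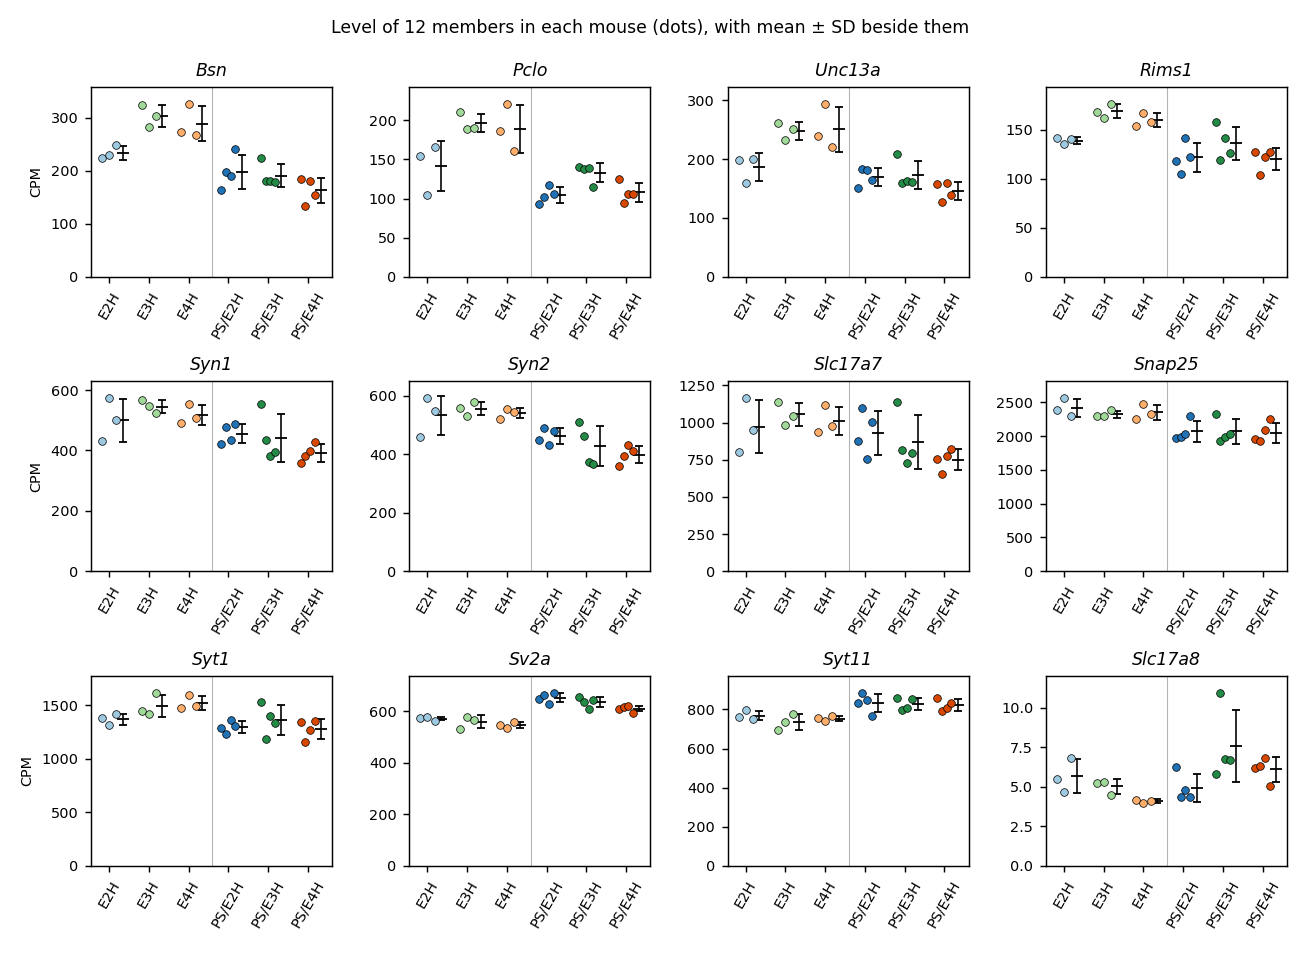
CPM (y axis, from 0) of 12 members in each mouse (dots) of the 6 groups (x axis), with the group mean ± SD beside the dots. Bsn, Pclo, Unc13a, Rims1, Syn1 and Syn2 are lower in PS/E4H than in E4H mice without overlap, Sv2a is higher in all 12 PS19 mice than in all 9 parental mice, and mouse PS/E3H 1 is the uppermost dot of its group for most of the genes that are lower.

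Single mice weighed on the counts of members that passed. Mouse PS/E3H 1 had the highest level of its group in 23 of the 34 members, and without it 13 members passed in PS/E3H mice rather than 4, while 12.4% of all genes passed. Without E3H 1 the count was 1 (0.522% of all genes), without E3H 3 it was 2 (0.957%) and without PS/E3H 4 it was 2 (1.92%). By DESeq2 it was 10 with all mice, against 13.8% of all genes. On the APOE4 background the edgeR count was 16 with all mice, 7 without E4H 2, and 10 without E4H 1, E4H 3 or PS/E4H 2. Of all genes 5.54%, 7.12%, 11.2% and 10.7% passed without these mice, in that order. By DESeq2 the count there was 20 with all mice, against 24.8% of all genes. Hypothalamic neuron markers summed to 5.131 FPKM in E4H 2, against 66.71 FPKM in E4H 1 and 55.47 FPKM in E4H 3. Of the E4H mice, E4H 2 also had the lowest thalamic and midbrain and hindbrain sums (28.54 and 3.591 FPKM). Its sum of cortical and hippocampal excitatory neuron markers was the highest (839.8 FPKM). The part of tissue content in these counts was not tested. Without the mice that are low in Xist, 2 mice were left in each of E4H and PS/E4H, and 11 members passed, all of them among the 16, against 9.59% of all genes.

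When the 12 PS19 mice were set against the 9 parental mice with the APOE line as a term, 14 members fell and 2 rose, against 9.63% and 11.4% of 22863 genes. These fits use the same mice as the 3 comparisons above. Pclo fell by 0.61 ± 0.080 (adjusted p = 9.43e-06, edgeR), Bsn by 0.58 ± 0.085 (adjusted p = 3.25e-05), Unc13a by 0.48 ± 0.085 (adjusted p = 0.000255), Syn2 by 0.34 ± 0.060 (adjusted p = 0.000249) and Rims1 by 0.30 ± 0.057 (adjusted p = 0.000455). Sv2a rose by 0.18 ± 0.028 (adjusted p = 7.54e-05) and Syt11 by 0.14 ± 0.033 (adjusted p = 0.00458), both small next to the falls of the scaffold genes. Snap25, which passed in no single comparison, fell by 0.20 ± 0.042 (adjusted p = 0.00171). The other members that fell were Unc13b, Syt7, Syn1, Cplx2, Stx1a, Syt1, Sv2b and Slc17a7, by 0.16 to 0.36 on the log2 scale. Syp, Rab3a, Vamp2, Dnm1, Rims2 and Syt4 had pooled log2 fold changes between -0.07 and 0.02. The call of Sv2b was lost without E3H 3 or E4H 2 (-0.22 to -0.17 over 21 fits), and that of Slc17a7 held in 8 of 21 fits that left out a mouse (-0.31 to -0.22).

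Transcript length moved with these differences. Bsn (longest annotated transcript 15938 bases), Pclo (20084 bases), Unc13a (10255 bases) and Unc13b (14754 bases) are the 4 members over 10 kb. Their median log2 fold change was -0.22, -0.55 and -0.80 on the APOE2, APOE3 and APOE4 backgrounds. All genes of that length class had medians of -0.07, -0.12 and -0.23, and 0%, 10.9% and 32.8% of them fell. Over the 34 members the Spearman correlation of length with log2 fold change was -0.33, -0.24 and -0.42, a description across genes of the same libraries, and over all genes it was 0.01, -0.12 and -0.15. With the length trend of each mouse removed, a step added after the data were seen, Bsn fell by 0.51 (adjusted p = 0.0264, edgeR), Pclo by 0.38 (adjusted p = 0.0177) and Unc13a by 0.43 (adjusted p = 0.0481) in PS/E3H mice, and Unc13b had -0.23 (adjusted p = 0.0951). In PS/E4H mice the values were -0.53 (adjusted p = 0.00130), -0.45 (adjusted p = 0.00152) and -0.60 (adjusted p = 0.00126), and Unc13b had -0.24 (adjusted p = 0.0730). By this fit 3 members fell and 0 rose in PS/E3H mice (1.57% and 3.44% of all genes), and in PS/E4H mice 14 fell and 3 rose (6.47% and 8.54%), with Rab3c, Cplx2 and Unc13b lost and Amph, Syt5, Sv2a and Syt11 gained. The falls of Bsn, Pclo and Unc13a were smaller by this fit on both backgrounds, and the cause of the trend was not tested.

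**Figure D4:**
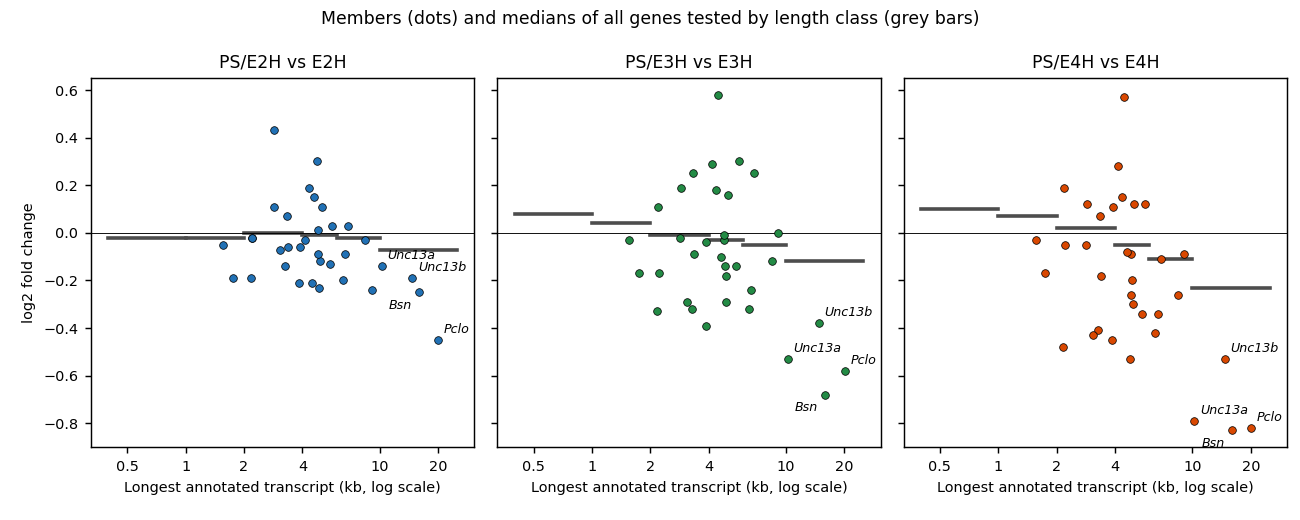
Log2 fold change (y axis) against the longest annotated transcript in kb (x axis, log scale) for the 34 members (dots) in the 3 comparisons of PS19 and parental mice, with grey bars for the median of all genes tested in each length class. The 4 labelled members over 10 kb lie below the bar of their class in each panel, and the bars fall with length on the APOE3 and APOE4 backgrounds.

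Cell type markers moved in the same mice. The 9 markers of cortical and hippocampal excitatory neurons summed to 656 to 840 FPKM in parental and 469 to 774 FPKM in PS19 mice, and 0, 0 and 7 of the 9 fell on the APOE2, APOE3 and APOE4 backgrounds. Of 10 pan-neuronal markers 0, 0 and 3 fell, and of 8 inhibitory neuron markers none fell and 0, 2 and 4 rose. Of 15 microglial markers 9, 13 and 14 rose, with sums of 265 to 372 FPKM in parental and 525 to 1096 FPKM in PS19 mice. Of 8 astrocyte markers 1, 6 and 6 rose, and of 8 oligodendrocyte markers 0, 8 and 7. None of the markers of these lists was at 0 in any mouse. Of the 12 midbrain and hindbrain markers 0, 2 and 2 rose, with median log2 fold changes of 0.29, 1.55 and 1.40 over those tested (12, 10 and 10). Their sum ran from 10.55 to 22.44 FPKM in E2H, 4.668 to 12.93 FPKM in E3H and 3.591 to 17.07 FPKM in E4H mice, and from 17.39 to 20.92 FPKM in PS/E2H, 9.718 to 28.03 FPKM in PS/E3H and 11.23 to 29.66 FPKM in PS/E4H mice. Hoxb3, Hoxb5, Slc6a4, Gata3 and En1 of that list were at 0 in at least 1 mouse. None of the cerebellar markers tested passed. Fewer cells of a type and less RNA per cell cannot be told apart in bulk RNA, and the part of these shifts in the release genes was not tested.

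Other genes of the same machinery were counted from 5 lists, 98 genes in all, of which 96 were tested. On the APOE2, APOE3 and APOE4 backgrounds 1, 7 and 22 of them fell (1.04%, 7.29% and 22.9% of the 96) and 0, 1 and 6 rose (0%, 1.04% and 6.25%). Of all genes 0.0825%, 2.02% and 6.98% fell and 0.669%, 3.35% and 8.62% rose. In PS/E4H mice those that fell were 5 of 20 SNARE proteins and regulators, 3 of 12 calcium sensors and complexins, 8 of 24 active zone and priming proteins, 3 of 19 vesicle proteins and 3 of 21 endocytosis proteins. Syt17, of the synaptotagmin family, fell by 0.88 ± 0.14 (adjusted p = 0.00914, edgeR) in PS/E3H and by 0.91 ± 0.10 (adjusted p = 0.000624) in PS/E4H mice. Ppfia2, which encodes the active zone organizer liprin-alpha-2, fell by 0.38 ± 0.086 (adjusted p = 0.0155) in PS/E4H mice and by 0.45 ± 0.081 (adjusted p = 0.0424) in PS/E2H mice. In the other direction Stxbp3, a Munc18 protein that is not specific to neurons, rose by 0.50 ± 0.095 (adjusted p = 0.00788) and Dnm2, the dynamin of all tissues, by 0.39 ± 0.092 (adjusted p = 0.0201) in PS/E4H mice.

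The APOE lines were compared next, first without tau. No member passed an adjusted p under 0.05 in E2H against E3H, E4H against E3H or E4H against E2H mice by edgeR, while 4, 0 and 2 did by DESeq2, where 3.61%, 0.904% and 1.71% of all genes passed. By an unadjusted p under 0.05, 9 of 34 members differed between E2H and E3H mice, against 14.1% of all genes tested, 1 between E4H and E3H mice (Rab3b), against 6.67%, and 11 between E4H and E2H mice, against 12.4%. By edgeR, those of the 9 that were lower in E2H than in E3H mice included Bsn (log2 fold change -0.38 ± 0.082, adjusted p = 0.208), Unc13a (-0.42 ± 0.10, adjusted p = 0.218), Pclo (-0.48 ± 0.15, adjusted p = 0.259) and Rims1 (-0.29 ± 0.072, adjusted p = 0.218). Those of the 9 that were higher included Vamp1 (0.48 ± 0.12, adjusted p = 0.218) and Cplx1 (0.26 ± 0.084, adjusted p = 0.263). With the length trend removed the log2 fold changes of Bsn, Unc13a, Pclo and Rims1 were -0.06, -0.20, -0.16 and -0.15, and those of Vamp1 and Cplx1 0.59 and 0.15. The comparisons of E2H with E3H and of PS/E2H with E2H mice share the E2H mice, 1 of which, E2H 2, stood apart in length. The midbrain and hindbrain markers also differed between E2H and E3H mice, with a median log2 fold change of 1.78 over the 10 tested, none of which passed, and their part in these values was not tested.

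Among the paralyzed mice no member passed by edgeR either, and 0, 0 and 1 did by DESeq2, where 0.795%, 0.172% and 1.36% of all genes passed. By an unadjusted p under 0.05, 3 of 34 differed between PS/E2H and PS/E3H mice, against 11.7% of all genes, 4 between PS/E4H and PS/E3H mice, against 6.51%, and 8 between PS/E4H and PS/E2H mice, against 12.3%. In the last, all 8 were lower in PS/E4H mice, among them Vamp1 (-0.31 ± 0.074, adjusted p = 0.242, edgeR), Dnm1 (-0.27 ± 0.075, adjusted p = 0.282) and Syn2 (-0.22 ± 0.076, adjusted p = 0.343). Pclo was lower in PS/E2H (-0.35 ± 0.093, adjusted p = 0.377) and in PS/E4H mice (-0.31 ± 0.094, adjusted p = 0.758) than in PS/E3H mice, with overlap. Vamp1 had the same sign in parental and paralyzed mice, with E2H and PS/E2H mice at 274 to 333 CPM and the other 4 groups at 195 to 290 CPM.

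**Figure D5:**
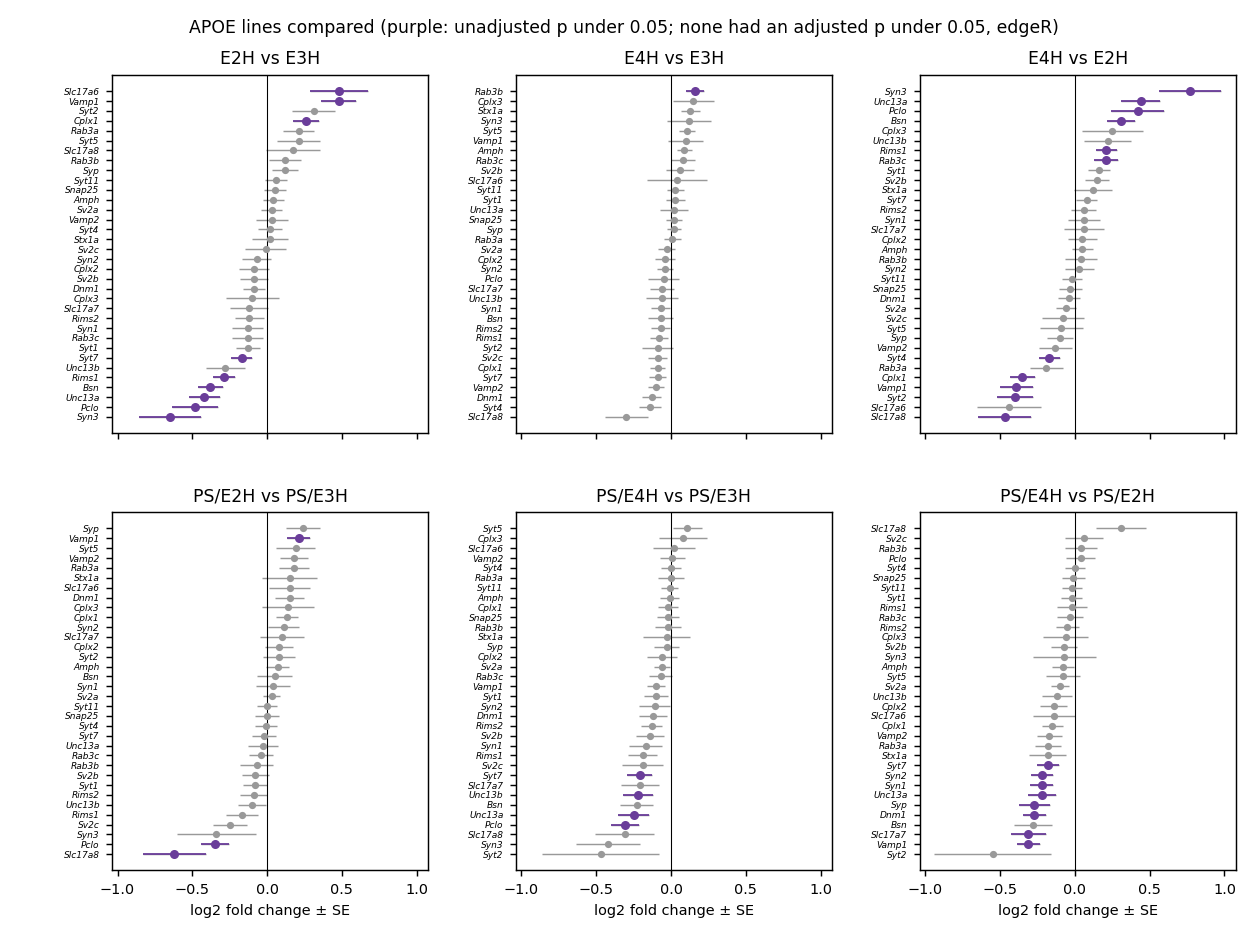
Log2 fold change ± SE (x axis) of the 34 members (y axis, ordered by value) in the 6 comparisons of APOE lines, without tau (upper row) and in paralyzed PS19 mice (lower row); purple symbols have an unadjusted p under 0.05. The purple symbols number 9, 1 and 11 in the upper row and 3, 4 and 8 in the lower row, and no member passed after adjustment.

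Whether the difference between PS19 and parental mice in a member varies with the APOE background was tested by an interaction term. No member passed in any of the 3 interactions by edgeR, nor did any other gene, and 0, 0 and 1 members did by DESeq2, where 0.0576%, 0.0405% and 0.486% of all genes passed. By an unadjusted p under 0.05 there were 3 members between the APOE2 and APOE3 backgrounds, against 5.72% of all genes, 0 between APOE4 and APOE3, against 3.81%, and 6 between APOE4 and APOE2, against 10.1%. The last were led by Unc13a, with a difference of -0.65 ± 0.16 on the log2 scale (adjusted p = 0.293), Bsn (-0.59 ± 0.18, adjusted p = 0.353) and Slc17a8 (0.78 ± 0.24, adjusted p = 0.357). The falls that passed on the APOE3 and APOE4 backgrounds and not on the APOE2 background are therefore not shown to differ from it.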

How the data were processed

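Forebrain RNA of 21 mice in 6 groups was sequenced as paired reads from stranded, poly(A)-selected libraries. The authors aligned the reads with HISAT2, assembled and quantified transcripts with StringTie and deposited 1 table of raw counts and 1 of FPKM per gene. The submitters' processing notes name cutadapt, HISAT2, StringTie, DESeq2, edgeR and the build GRCm38.p5. How the deposited counts were taken from the StringTie output, and whether strand was used, is not given in the sources used here. The deposited FPKM values were normalised by the authors to transcript length and mapped fragments and were used here for levels between genes and for limma.

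The deposited counts were tested with edgeR 4.0.16 in R 4.3.3 (TMM normalisation, quasi-likelihood F test) after a filter on low values (filterByExpr, minimum count 10, minimum total 15), which no member failed. Only the groups compared entered a fit. The pooled effect, the difference between PS19 and parental mice, used all mice with the APOE line as a term. Adjusted p-values are Benjamini-Hochberg values over all genes tested, with a threshold of 0.05. The SE was taken from the log2 fold change and its F. CPM are TMM-normalised counts scaled to 1000000 per library. Each mouse is 1 replicate. The p-values weigh the difference between groups against the spread between these mice, which edgeR moderates over genes.

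Alternatives were DESeq2 1.42.0, limma 3.58.1 on log2(FPKM + 1) and log2(FPKM + 0.1), other size factors, no filter, a shared fit of 6 groups, the replicate number as a block, and leaving out each mouse. Added after the data were seen were the removal of each mouse's trend with transcript length (longest transcript in GENCODE M21) and leaving out the mice low in Xist. Scripts were tested on simulated data. The members, the marker lists and the pathway lists were chosen with earlier results of these data known. Every mouse's value is given for members by a fixed rule. It takes the 3 members of lowest adjusted p per comparison and direction among those under 0.05, at most 14. The best expressed member of each role is added. Comparisons in which no member passed gave none. Other genes of the machinery were named by the 2 smallest adjusted p in each direction of the pooled effect. Members named outside the rule were chosen after their values were seen.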

Additional observations from a re-analysis of the deposited data

Results flagged for a closer look

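Among 102 sets of 4 PS19 mice (34 members in 3 groups), 11 held 1 mouse whose gap to the nearest other, divided by the range of the group, was above Dixon's critical value. For a single set chance alone gives about 1 in 20. The sets come from the same mice and are not independent. The share of all genes above this value was not counted, so no excess among the members is shown. In PS/E3H mice, mouse 1 stood above the other 3 for Bsn (224.7 CPM against 179.5 to 180.2), Unc13a (207.8 CPM against 158.5 to 163.4) and Vamp2 (1192 CPM against 948.2 to 979.7), and mouse 4 stood below them for Pclo (114.6 CPM against 137.4 to 140.7). In PS/E4H mice, mouse 4 was low in Syt2, the calcium sensor of fast inhibitory and brainstem synapses (17.25 CPM against 77.97 to 104.8). The 12 midbrain and hindbrain neuron markers summed to 11.23 FPKM in that mouse against 17.11 to 29.66 FPKM in the other 3, while its inhibitory neuron markers summed to 417.8 FPKM against 371.3 to 433.1 FPKM. Their part in the Syt2 value was not tested. Mouse 2 of the same group was low in Sv2b (330.0 CPM against 399.1 to 410) and Rims2 (80.41 CPM against 87.59 to 88.64). Mouse 1 was high in Syt7 (231.5 CPM against 195.7 to 200.4) and mouse 3 in Dnm1 (888.5 CPM against 776.1 to 785.3). In PS/E2H mice, mouse 3 was low in Cplx2 (791.3 CPM against 906.7 to 912.1) and Rab3a (455.2 CPM against 553.9 to 574.1).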

How the results depend on the processing

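Over the alternatives, 712 values of member log2 fold changes kept their direction and their side of the threshold. A further 60 were no longer past it, 22 were newly past it and 15 changed sign. These values cover 77 pairs of a member and a comparison, not all members in all comparisons. The pairs were those past the threshold in the main fit. For PS19 against parental mice, pairs of the members with every mouse's value given were added. For leaving out each mouse, only the lowest and highest value of a pair entered. Of 237 counts of members past an adjusted p under 0.05, 218 stayed within 1.5 times or were 0 in both fits. Most comparisons had a count of 0 in the main fit, so this share says little about the comparisons with calls. By DESeq2 the count was 10 in PS/E3H mice (7 lower, 3 higher, among them the 4 of edgeR; 13.8% of all genes passed), 4 for E2H against E3H, 2 for E4H against E2H, 1 for PS/E4H against PS/E2H and 1 for the interaction of APOE4 with APOE2. In PS/E4H mice it was 20 by DESeq2 (24.8% of all genes), 11 without the filter (6.56%) and 11 with all 6 groups in 1 fit (12.5%). With all 6 groups in 1 fit it was 1 in PS/E2H mice (Sv2a, against 2.44% of all genes), 1 for E2H against E3H (0.363%) and 1 for E4H against E2H (0.407%). Leaving out each mouse gave 0 to 1 in PS/E2H mice (0.146% to 0.695% of all genes) and 1 to 13 in PS/E3H mice (0.522% to 12.4%). It gave 7 to 16 in PS/E4H mice (5.54% to 16.5%). For E4H against E2H it gave 0 to 1 (0.126% to 0.254%) and for the pooled effect 14 to 18 (15.9% to 24%). The replicate numbers do not pair the mice (correlations of same-numbered mice -0.23 to 0.37), and the fit with the replicate block called 7 members in PS/E4H mice, all among the 16, and 3 in PS/E3H mice, against 5.99% and 2.49% of all genes. Among the 77 pairs, sign changes were confined to values near 0. Cplx1 in PS/E2H mice was 0.01 by limma with either pseudocount. Without the mice low in Xist, Syp was 0.01 and Rab3a 0.02 in PS/E4H mice and Dnm1 0.01 in the pooled effect. With the length trend removed, Dnm1 in the pooled effect was 0.01. Leaving out each mouse gave, in PS/E2H mice, -0.09 to 0.05 for Cplx1, -0.12 to 0.08 for Rab3a and -0.18 to 0.08 for Slc17a7. It gave -0.11 to 0.02 for Rab3a and -0.11 to 0.03 for Syp in PS/E3H mice and -0.05 to 0.01 for Rab3a in PS/E4H mice. In the pooled effect it gave -0.03 to 0.02 for Dnm1, -0.06 to 0.00 for Rab3a and -0.02 to 0.04 for Syp. The causes were not tested.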
